A study of Mus musculus with 2 samples.

Results

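Kappa light chain variable segments, the Igkv genes, were followed cell by cell in mouse spleen with a droplet assay that sequences the 5′ ends of transcripts of single cells. The members are all rows whose symbol starts with Igkv, which gave 160 of the 32285 rows of the expression table. Of these, 100 are annotated as genes and 60 as pseudogenes, in 20 families named by the number before the dash. B cells were barcodes with at least 1000 UMIs (unique molecular identifiers, each 1 captured transcript), at least 2 UMIs of Cd79a and Cd79b together, no UMI of Cd3d, Cd3e or Cd3g and fewer than 3 UMIs of Jchain. A B cell was assigned to its leading segment where that had 3 UMIs or more and no fewer than 2 times those of the runner-up. None of these rules used the measured difference between libraries, but some of the segments named below were ranked by it.

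Both groups were wild-type C57BL/6 mice given skin at weeks 0 and 5, with spleens taken 4 weeks after the second graft, then frozen, thawed and freed of dead cells. ALLO recipients got skin of C57BL/6-Tg(HLAA2.1)1Enge/J donors, which carry a human HLA-A2.1 transgene, and SYN recipients got skin of wild-type C57BL/6 donors. Each group held 1 library, and the labels do not give the number of mice in it. No difference between libraries therefore has a replicate check or a test, and every interval printed here is a 95% interval for counting error only.

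A kappa chain is made in a developing B cell when 1 V segment is joined to 1 J segment by the recombinase, and the joined exon is spliced to the constant exon Igkc. V segments that lie in the J orientation join by deletion and those in the other orientation by inversion, so both kinds can be used. A first join can be replaced by a join of a V segment farther upstream to a J segment farther downstream, a process known as receptor editing. Mature B cells usually show a single light chain, either kappa or lambda. Splenic B cells include follicular cells, which carry the low-affinity IgE receptor encoded by Fcer2a, marginal zone cells, newly arrived transitional cells, which carry Cd93, and few B-1 cells.

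All 160 gene identifiers were found in the GENCODE M21 annotation of GRCm38 (mm10), between chr6:67555497-70704177. The order number after the dash ran opposite to the coordinate, apart from Igkv4-59 and Igkv4-60, which are swapped, from 1 next to Igkj1 (chr6:70722562-70722599) to 137 at the far end, over 3149 kb. Equal steps of that number gave a proximal region (numbers 1 to 46, 48 segments of which 39 are genes), a middle region (47 to 91, 57 segments, 30 genes) and a distal region (92 to 137, 55 segments, 31 genes). Igkj1 and Igkc lie on the plus strand, as do 75 of the segments, and the other 85 lie on the minus strand.

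The germline 3′ ends of the segments the results turn on show how they differ in the stretch that enters the third complementarity-determining region. They are the last 50 bases of the annotated segment in GRCm38, read on the segment's own strand. Capitals mark the 23 bases after the codon of the conserved cysteine.
Igkv10-96: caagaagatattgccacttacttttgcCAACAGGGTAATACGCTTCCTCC
Igkv1-117: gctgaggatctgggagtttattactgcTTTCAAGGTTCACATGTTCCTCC
Igkv1-110: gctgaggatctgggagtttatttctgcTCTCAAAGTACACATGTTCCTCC
Igkv1-135: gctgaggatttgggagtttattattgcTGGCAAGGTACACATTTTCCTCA
Igkv6-15: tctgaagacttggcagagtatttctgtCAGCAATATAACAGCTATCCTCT
Igkv19-93: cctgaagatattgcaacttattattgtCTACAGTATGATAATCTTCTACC
Igkv3-4: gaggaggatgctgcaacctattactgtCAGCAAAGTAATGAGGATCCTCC
Igkv14-100: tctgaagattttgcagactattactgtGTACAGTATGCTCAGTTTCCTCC
These stretches lie on chromosome 6 at 68631963 to 68632012 (Igkv10-96, minus strand), 68121778 to 68121827 (Igkv1-117, plus), 68271218 to 68271267 (Igkv1-110, plus), 67610459 to 67610508 (Igkv1-135, plus), 70406469 to 70406518 (Igkv6-15, minus), 68736297 to 68736346 (Igkv19-93, minus), 70672328 to 70672377 (Igkv3-4, plus) and 68519428 to 68519477 (Igkv14-100, plus). Over the whole spliced segment, Igkv1-117 and Igkv1-110 were 97.5% identical and shared an unbroken run of 142 bases. Among the 99 segments with an assigned cell, 53 had another Igkv segment at 95% identity or more, so the authors' counting could move or drop reads between such neighbours.

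The ALLO library held 39476214 UMIs in 11185 barcodes and the SYN library 45435231 UMIs in 17777 barcodes, and 264 barcode sequences were found in both, 61 of them in B cells. The B cell rule took 6945 ALLO barcodes (70.0% of those with at least 1000 UMIs) and 6788 SYN barcodes (60.2%), with a median of 3173 and 2999 UMIs. T cell markers were near 0 in these cells, at a summed 4.91 CPM (UMIs of a gene scaled to the total UMIs of the cells) in ALLO and 11.4 CPM in SYN over 7 genes, of which Cd3d, Cd3e and Cd3g are at 0 by the rule and Trac, Trbc2, Cd4 and Cd8a are not in the rule. Myeloid markers differed between the libraries: Lyz2, Csf1r, S100a8 and S100a9 summed to 11.2 CPM in ALLO and 514 CPM in SYN B cells, and 3 ALLO and 45 SYN B cells had at least 3 such UMIs. An Igkv segment was assigned in 5763 ALLO B cells (83.0%, interval 82.1 to 83.9%) and 5468 SYN B cells (80.6%, 79.6 to 81.5%). The median B cell had 26 Igkv UMIs in either library.

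Use of the segments was uneven, and the same few led in both libraries. Igkv10-96, a minus-strand gene of the distal region, was assigned in 351 ALLO cells (6.09%) and 317 SYN cells (5.80%). Igkv1-117 followed with 271 and 232 cells, then Igkv1-135 with 226 and 199 and Igkv6-15 with 214 and 187. The first 3 lie in the distal region and Igkv6-15 in the proximal region. The next 8 over both libraries were Igkv1-110, Igkv6-17, Igkv6-23, Igkv19-93, Igkv3-4, Igkv17-127, Igkv9-120 and Igkv14-111, each with 280 to 378 cells. The 10 most used segments held 36.3% of assigned ALLO cells and 35.1% of assigned SYN cells. The 16 most used ALLO segments, and the 17 most used SYN segments, held at least as many cells as all the others together.

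At the other end, 93 of the 100 genes had an assigned cell in ALLO and 88 in SYN. The 6 genes with none in either library were Igkv1-131, Igkv4-81, Igkv4-78, Igkv1-35, Igkv7-33 and Igkv8-26, where a count of 0 allows a share of up to 0.0521% in ALLO and 0.0549% in SYN. The median gene was used by 0.616% of assigned ALLO cells and 0.622% of assigned SYN cells. Over the 99 segments with a cell in either library, the shares of the libraries had a Pearson r of 0.980 and a Spearman rho of 0.967, given as a description, since all segments share the 2 libraries.

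**Figure D1:**
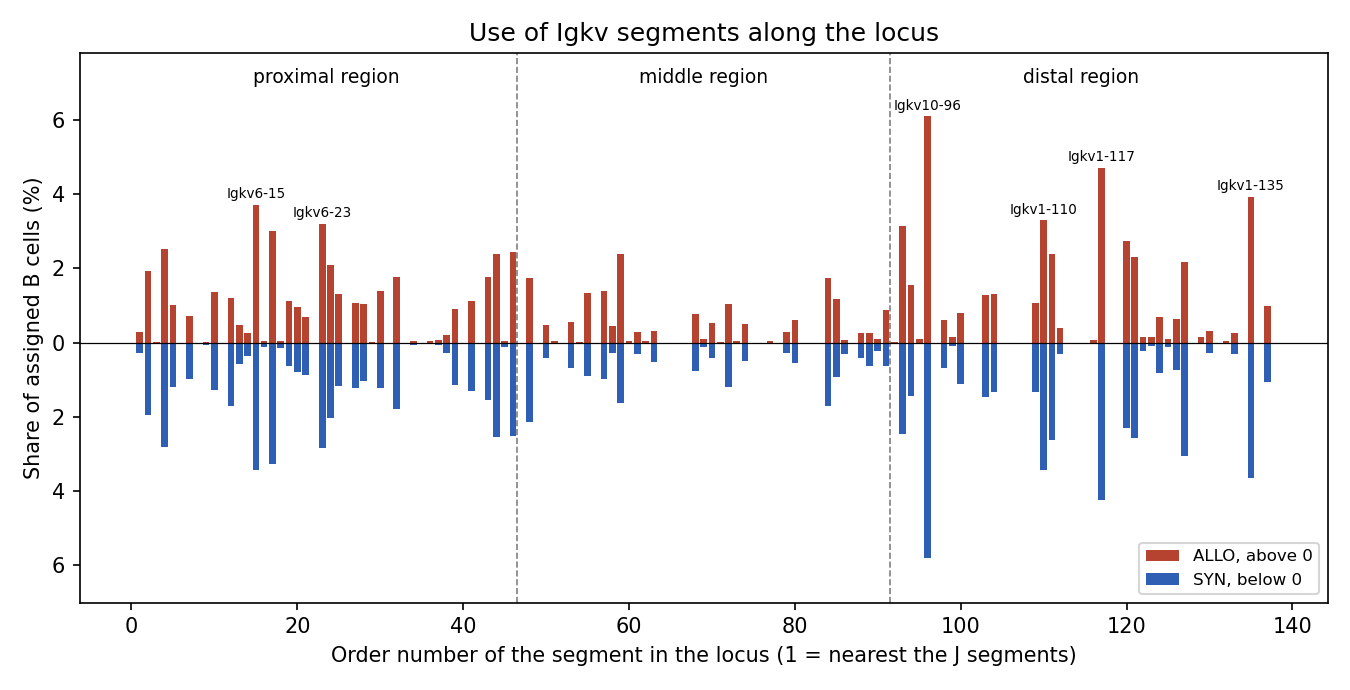
Share of assigned B cells (%) for each Igkv segment against its order number in the locus, ALLO above the zero line and SYN below it, with dashed lines between the regions. Use was high at both ends and low in the middle, and the profiles mirror each other, with Igkv10-96 highest at 6.09% and 5.80%.

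Both ends of the locus were used about equally and the middle less. The distal region held 2394 ALLO cells (41.5%, interval 40.3 to 42.8%) and 2272 SYN cells (41.6%, 40.2 to 42.9%), a ratio of 1.00 (0.944 to 1.06). The proximal region held 40.3% and 41.3% (ratio 0.976, 0.921 to 1.03) and the middle region 18.2% and 17.2% (1.06, 0.968 to 1.16). All 3 intervals include 1. Minus-strand segments, which join by inversion, held 54.9% of ALLO and 52.5% of SYN cells, although 62 of the 100 genes are on that strand.

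Family 6 led with 14.7% of ALLO and 14.2% of SYN cells from 9 segments, all of them genes, 7 of which had at least 40 cells over both libraries. Family 4, the biggest family with 33 segments and 26 genes, all on the minus strand between order numbers 50 and 92, held 751 ALLO cells (13.0%, 12.2 to 13.9%) and 623 SYN cells (11.4%, 10.6 to 12.3%). Its ratio of ALLO to SYN was 1.14 (1.03 to 1.27), and 11 of its 14 segments with at least 40 cells had a ratio above 1, against 30 of 60 over all families. The interval of family 4 included 1 with cells thinned to 1000 UMIs (1.08, 0.955 to 1.23), with a leading segment at least 3 times the runner-up (1.115, 0.998 to 1.25) and with at least 2000 UMIs per barcode (1.11, 0.989 to 1.24). Family 1 came next with 12.8% and 12.4%, and family 3, which lies at order numbers 1 to 12 next to the J segments, held 9.08% and 10.2% (0.886, 0.785 to 1.00). Family 17, whose genes are Igkv17-127 and Igkv17-121, was lower in ALLO (4.48% against 5.63%, 0.795, 0.671 to 0.941). Igkv17-121 alone had an interval that includes 1 (0.895, 0.701 to 1.14), and the family held 6.14% and 6.66% of Igkv UMIs. The alternatives were not run for family 17 as a whole. Family 19, which is Igkv19-93 alone, was higher (3.14% against 2.47%, 1.27, 1.01 to 1.60), but its interval included 1 after thinning (1.18, 0.928 to 1.51) and with a minimum of 2 or of 5 UMIs per segment (1.21, 0.964 to 1.51, and 1.26, 0.995 to 1.59). For the other 13 of the 16 families with at least 1% of cells in a library, the interval of the ratio included 1.

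**Figure D2:**
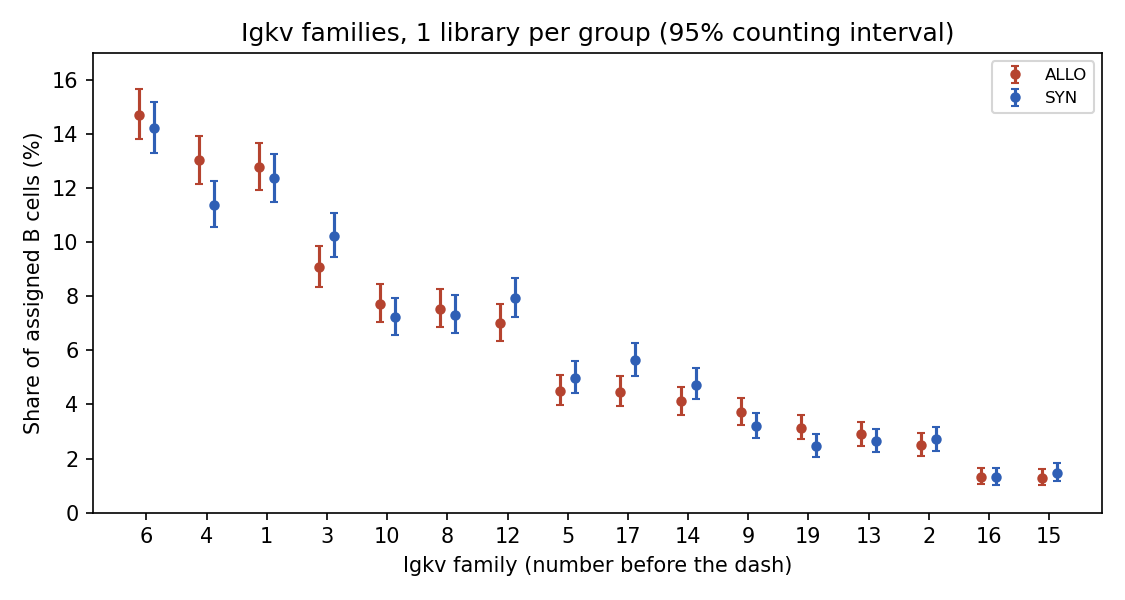
Share of assigned B cells (%) by Igkv family, for the 16 families with at least 1% in either library, with ALLO in red and SYN in blue. Points are 1 library each and bars are 95% counting intervals, and family 4 (13.0% and 11.4%) and family 17 (4.48% and 5.63%), with family 19, are those whose ratio intervals leave out 1 under the rule used here.

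Family 4 had a larger share of cells than of transcripts. It held 13.0% of assigned ALLO cells but 7.74% of Igkv UMIs, and 11.4% and 7.14% in SYN. A cell assigned to family 4 had a median of 12 UMIs of its segment in ALLO and 13 in SYN, or 32.3 and 35.3 UMIs per kb of exon, against 68.3 and 71.8 per kb over all assigned cells. Family 13, whose segments are interleaved with family 4, was as low, at 34.6 per kb in both libraries. Of its 18 segments 17 lie on the plus strand, but its assigned cells all came from 2 genes on opposite strands. Igkv13-84 (plus strand, 100 ALLO and 94 SYN cells) was at 34.6 per kb in both libraries. Igkv13-85 (minus strand, 67 and 50 cells) was at 37.5 per kb in ALLO and 40.3 in SYN. At the other extreme, families 9, 17 and 12 had medians of 110, 103 and 90.2 per kb in ALLO and 115, 94.7 and 94.8 in SYN. Family 2 had medians of 37.4 and 31.3 per kb over 144 and 148 cells, but its segments differed. Igkv2-137 was at 11.98 per kb in ALLO and 10.98 in SYN (57 and 58 cells). Igkv2-109 was at 64.17 and 56.15 (61 and 73 cells) and Igkv2-112 at 67.87 and 54.02 (22 and 16 cells), nearer to the level over all assigned cells. Families 4 and 13 and the segment Igkv2-137 were low and families 9, 17 and 12 high in either library. The assignment needs 3 UMIs, a limit that is nearer to the level of a low family or segment. What part it has in the shares of families 4 and 13 and of Igkv2-137 was not tested.

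Single segments mostly kept the same share in both libraries. Of the 60 with at least 40 assigned cells over both, 4 (6.67%) were at least 1.5-fold apart, 2 higher and 2 lower in ALLO (3.33% each). Among heavy chain Ighv segments treated the same way, 2 of 62 (3.23%) were. The ratios ran from 0.419 to 1.79 with a median of 0.998, and for 7 of the 60 segments the interval left out 1. Among 60 such intervals, some can leave out 1 by counting error alone, and they were not widened for the number of segments. No count of intervals is given for Ighv segments, so the 7 have no reference share. Whether any of the 7 is more than counting error was not tested. Igkv8-19, a proximal gene, had 64 ALLO and 34 SYN cells, or 1.11% and 0.622% (ratio 1.79, 1.16 to 2.79). Igkv12-89, a gene of the middle region, had 15 and 34 cells, or 0.260% and 0.622% (0.419, 0.212 to 0.789). The other 2 beyond 1.5-fold, Igkv4-58 (26 and 15 cells) and Igkv4-63 (18 and 28), had intervals that include 1 and were named after their values were seen.

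Next in rank among the higher segments were 3 of family 4 and Igkv19-93. Igkv4-59 had 137 and 89 cells (1.46, 1.11 to 1.93), Igkv4-55 had 77 and 49 (1.49, 1.03 to 2.18) and Igkv4-57 had 80 and 53 (1.43, 1.00 to 2.07). Among the lower ones, Igkv17-127 had 125 and 167 cells (0.710, 0.559 to 0.901) and Igkv3-12 had 70 and 93 (0.714, 0.516 to 0.984). After thinning to 1000 UMIs the intervals of Igkv4-59 (0.955 to 1.81) and Igkv3-12 (0.541 to 1.03) included 1, and with a minimum of 5 UMIs that of Igkv4-55 did (0.993 to 2.13). With at least 2000 UMIs per barcode, that of Igkv17-127 did (0.601 to 1.01). Igkv14-100 (46 and 61 cells) and Igkv5-48 (100 and 117) were lower with intervals that include 1.

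On the scale of summed CPM in B cells, 105 of the 160 rows had at least 20 UMIs over both libraries and 33 had none. Of the 105, 7 were at least 1.5-fold higher and 18 at least 1.5-fold lower in ALLO. Over all 12415 genes with as many UMIs, 2.77% were higher and 4.88% lower by that much. The median log2 ratio was -0.16 for the Igkv rows and -0.07 for all genes. The highest count of Igkv10-96 in a single SYN barcode was 2114 UMIs, but this is over barcodes of any cell type and not B cells alone. How far a sum over B cells rests on single cells was not tested, and the shares of cells are the measure used elsewhere.

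B cells were next split by transcripts. Fcer2a was found in 4973 ALLO and 4660 SYN B cells (4143 and 3852 assigned). Myof or S1pr3, 2 genes of marginal zone cells, was found in 458 and 406 cells (365 and 319 assigned), of which 225 and 188 also had Fcer2a. Cd93 was found in 141 and 125 cells (106 assigned in each library), of which 96 and 81 also had Fcer2a. The 3 sets differed in depth, with medians of 3222 and 3104, 4901.5 and 4225.5, and 3996 and 3847 UMIs, and cells under 2 rules count in both sets.

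Marker genes that the rules did not use differed in the direction of their names. All 6 marginal zone genes (Cr2, Cd1d1, Cd9, Dtx1, Mzb1 and Plac8) were higher in Myof or S1pr3 cells than in Fcer2a cells in both libraries, summing to 2629 against 1157 CPM in ALLO and 2726 against 1087 CPM in SYN. Cr2, the complement receptor CD21, was at 737 against 329 CPM in ALLO and 726 against 311 CPM in SYN. The follicular genes Ighd, Ccr7, Klf2 and Cd55 were lower there in both libraries, with Ighd, the constant gene of IgD, at 304 against 541 CPM in ALLO and 268 against 549 CPM in SYN. All 4 transitional genes (Cd24a, Vpreb3, Sox4 and Akap12) were higher in Cd93 cells, summing to 1168 against 649 CPM in ALLO and 1195 against 728 CPM in SYN. The B-1 genes Bhlhe41, Zbtb32, Cd5 and Spn summed to 61.5 against 22.0 CPM in ALLO Cd93 cells, with 4 of 4 higher, and 23.0 against 19.1 CPM in SYN, with 3 of 4 higher. Of the 6 marginal zone genes, 4 in ALLO and 3 in SYN were also higher in Cd93 cells. Plac8 was at 747 against 382 CPM in ALLO and 738 against 316 CPM in SYN. Cr2 was lower, at 230 against 329 CPM in ALLO and 198 against 311 CPM in SYN, and so was Dtx1 in both libraries. The part of B-1 or marginal zone cells in the Cd93 results was not tested. In SYN Cd93 cells, however, the macrophage lysozyme gene Lyz2 stood at 841 CPM, against 1.4 CPM in ALLO, and 4 of the 125 cells had at least 3 myeloid UMIs.

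The distal region was used a little more by Myof or S1pr3 cells in both libraries. In ALLO, 43.8% of these cells (38.7 to 49.1%) against 41.5% of Fcer2a cells were assigned to a distal segment, a ratio of 1.06 (0.893 to 1.24). In SYN it was 48.0% (42.4 to 53.6%) against 41.4%, a ratio of 1.16 (0.975 to 1.37). Both intervals include 1, as does that of both libraries summed (1.10, 0.981 to 1.24). The median order number of the assigned segment was 73 against 63 in ALLO and 89 against 68 in SYN.

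Cd93 cells differed from Fcer2a cells by less than counting error in both libraries. Their distal share was 44.3% (34.7 to 54.3%) in ALLO, a ratio of 1.07 (0.783 to 1.43) to Fcer2a cells, and 36.8% (27.6 to 46.7%) in SYN, a ratio of 0.889 (0.630 to 1.22). With 106 assigned cells in each library, a difference of this size was not detectable. Without B cells that had at least 3 myeloid UMIs, the SYN ratio was 0.876. Without the 4 segments that had at least 50 UMIs in T cells, an alternative chosen after seeing the data, both ratios were below 1 (0.973 in ALLO and 0.898 in SYN).

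**Figure D3:**
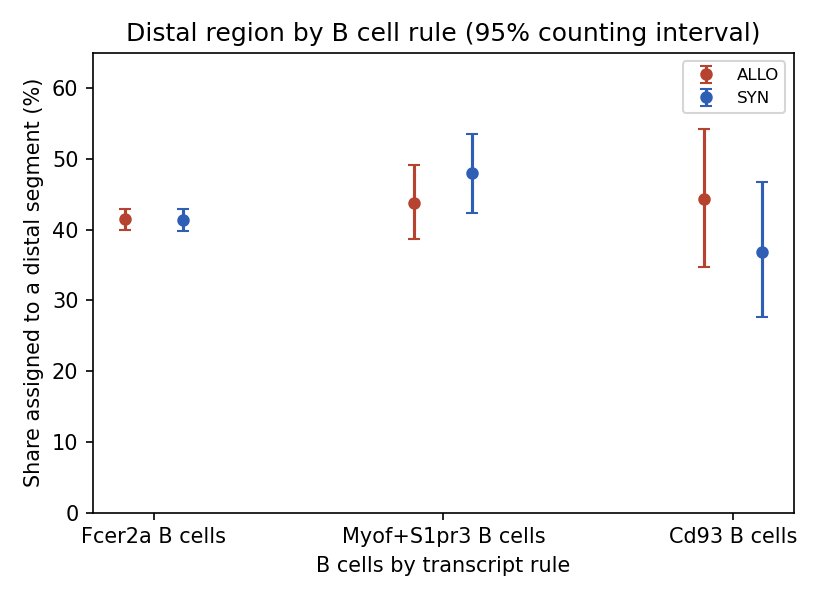
Share of assigned B cells (%) on a distal region segment in cells with Fcer2a, with Myof or S1pr3 and with Cd93, ALLO in red and SYN in blue, 1 library each with 95% counting intervals. Fcer2a cells sit at 41.5% and 41.4%, Myof or S1pr3 cells at 43.8% and 48.0%, and Cd93 cells at 44.3% and 36.8% with wide intervals.

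For each of the 16 families, the interval of the ratio of Myof or S1pr3 cells to Fcer2a cells, summed over libraries, included 1, and so did that for Cd93 cells. Within single libraries 1 interval left out 1, that of family 14 in SYN Myof or S1pr3 cells (7.21% against 4.41%, 1.63, 1.01 to 2.53), and in ALLO the same ratio was 0.752 (3.01% against 4.01%). The lowest ratio in Myof or S1pr3 cells was that of family 6 (0.805, 0.635 to 1.01), which was below Fcer2a cells in ALLO (12.6% against 14.8%) and in SYN (11.0% against 14.6%).

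By segment, 5 of 57 (8.77%) were at least 1.5-fold higher and 7 (12.3%) at least 1.5-fold lower in Myof or S1pr3 cells, against 10.7% and 21.4% of Ighv segments. Igkv8-24 ranked highest, with 12 ALLO and 10 SYN cells, or 3.29% and 3.13% against 2.03% and 1.95% of Fcer2a cells (1.62, 0.986 to 2.53). Igkv3-2 (1.44), Igkv3-5 (1.61), Igkv1-117 (1.13) and Igkv1-135 (1.15) followed, each with an interval that includes 1. Igkv3-12 was lowest, with 3 and 1 cells (0.362, 0.0973 to 0.951), the only one of the 10 named here whose interval left out 1. Igkv8-21 had 0 and 1 cells against 32 and 31 Fcer2a cells, Igkv6-17 had 6 and 7 against 120 and 131 (0.605, 0.318 to 1.05), and Igkv6-32 (0.615) and Igkv6-23 (0.754) were lower within counting error.

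In Cd93 cells, 8 of 55 segments (14.5%) were at least 1.5-fold higher and 14 (25.5%) lower, against 14.8% and 31.5% of Ighv segments, and counts were small. Igkv17-121 had 4 ALLO and 5 SYN cells (1.80, 0.809 to 3.48), Igkv4-72 had 2 and 3 (2.14, 0.679 to 5.19) and Igkv6-15 had 6 and 4 (1.34, 0.637 to 2.51). Igkv6-23 had 1 cell in each library (0.304, 0.0366 to 1.11), Igkv8-24 had 0 and 1, and Igkv16-104 had none, where Fcer2a cells had 54 in each library. Igkv8-24 thus ranked highest in Myof or S1pr3 cells and among the lowest in Cd93 cells, from 22 and 1 cells.

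A B cell often held transcripts of more than 1 segment. At least 3 UMIs of each of at least 2 segments were found in 1786 ALLO B cells (25.7%, 24.7 to 26.8%) and 1747 SYN B cells (25.7%, 24.7 to 26.8%). After thinning each cell to 1000 UMIs the share was 11.2% and 12.1%, so it depended on depth. In 217 and 221 of these cells there were at least 3 segments. The second segment had a median of 40.0% of the UMIs of the leading one in ALLO and 42.9% in SYN.

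Such cells were deeper and more often held 2 heavy chain segments. Their median was 3655.5 UMIs against 3107 for cells with 1 segment in ALLO, and 3456 against 2971 in SYN. At least 2 Ighv segments with 3 UMIs each were found in 20.7% of them (18.8 to 22.6%) against 4.26% of cells with 1 Igkv segment in ALLO, and in 21.8% (19.8 to 23.8%) against 3.70% in SYN. Among B cells with exactly 1 Ighv segment, 23.6% in ALLO and 22.9% in SYN still had at least 2 Igkv segments. Over all B cells, 8.34% and 8.26% had at least 2 Ighv segments. In T cells (at least 2 UMIs of Cd3d, Cd3e and Cd3g and none of Cd79a or Cd79b), 0 of 1546 ALLO and 0 of 2103 SYN cells had 2 Igkv segments, which allows a share of up to 0.194% and 0.143%, at deeper medians of 4226 and 4124 UMIs. A T cell has no kappa segment of its own, so this count is not like that of B cells with 2. Assigned to 1 segment were 17 ALLO T cells (1.10%) and 19 SYN T cells (0.903%).

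By B cell set, 27.6% of ALLO and 27.7% of SYN Fcer2a cells had at least 2 segments. The share was 32.3% and 29.8% in Myof or S1pr3 cells and 34.0% and 27.2% in Cd93 cells. After thinning to 1000 UMIs these became 11.9% and 12.8%, 10.0% and 11.1%, and 14.9% and 13.6%. Myof or S1pr3 cells were thus above Fcer2a cells at full depth and below them at equal total UMIs, and all thinned intervals overlapped. Thinning did not equalise Igkv UMIs, which were lower in Myof or S1pr3 cells than in Fcer2a cells. They stood at 6212 against 8292 CPM in ALLO and 7263 against 9132 CPM in SYN. The part of this level in the thinned shares was not tested.

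The partners were diverse. Cells with exactly 2 segments, 1569 in ALLO and 1526 in SYN, held 1022 and 1006 kinds of pairs, and 7.20% and 7.67% of the pairs were of the same family. Of these, 18 ALLO pairs (1.15%) and 15 SYN pairs (0.983%) were of segments at least 95% identical, and with such segments counted as 1 the share of B cells with at least 2 was 25.3% in each library. The commonest pair, Igkv1-135 with Igkv10-96, was found in 10 ALLO and 8 SYN cells. It was followed by Igkv1-135 with Igkv1-117 (6 and 9), Igkv1-117 with Igkv5-48 (11 and 3), Igkv1-135 with Igkv6-23 (10 and 4), Igkv1-135 with Igkv4-59 (7 and 6), and, tied, Igkv1-117 with Igkv10-96 (7 and 5) and Igkv17-121 with Igkv9-120 (7 and 5).

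A segment that is not the leading one, but has at least 3 UMIs, is called further here. Igkv1-135 was further in 144 ALLO and 123 SYN cells, or 63.7 and 61.8 per 100 assigned cells. The median over genes with at least 40 assigned cells was 30.0 per 100 in ALLO (49 genes) and 29.1 in SYN (47 genes). Igkv10-96 was below that, at 18.5 and 25.2, and Igkv1-117 lower still, at 13.7 and 16.8. Igkv1-117 and Igkv1-135, whose 3′ ends are printed above, are of the same family and stood at opposite sides of the median.

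Pseudogenes were rare as the leading segment and more common as a further one. They were assigned in 11 of 5763 ALLO cells (0.191%, 0.0953 to 0.341%) and 6 of 5468 SYN cells (0.110%, 0.0403 to 0.239%), but made up 91 of 2042 further segments in ALLO (4.46%, 3.60 to 5.44%) and 95 of 2035 in SYN (4.67%, 3.79 to 5.68%). Igkv4-77 (ENSMUSG00000105462, chr6:69110904-69111432, minus strand) led, as a further segment in 39 ALLO and 37 SYN cells and assigned in 3 and 0. Igkv4-73 (23 and 13 cells), Igkv4-60 (11 and 9) and Igkv12-40 (11 and 12) came next, named after their counts were seen. Read from its ATG, the spliced reference sequence of Igkv4-77 has an in-frame stop codon that starts at base 163, and its nearest relative Igkv4-68, a gene 95.5% identical over 352 bases, has none. The 51 bases around that codon are shown for both, with the stop codon of Igkv4-77 and the codon aligned with it in capitals.
Igkv4-77: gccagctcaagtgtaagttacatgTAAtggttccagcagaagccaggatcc
Igkv4-68: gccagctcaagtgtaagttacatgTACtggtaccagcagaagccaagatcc
They lie on chromosome 6, minus strand, at 69111067 to 69111117 and 69304997 to 69305047. Igkv4-68 itself was assigned in 45 ALLO and 42 SYN cells and further in 30 and 31. Igkv12-40 has an in-frame stop at base 169, Igkv4-73 and Igkv4-60 show none, and none of the 100 genes has one in its reference sequence.

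**Figure D4:**
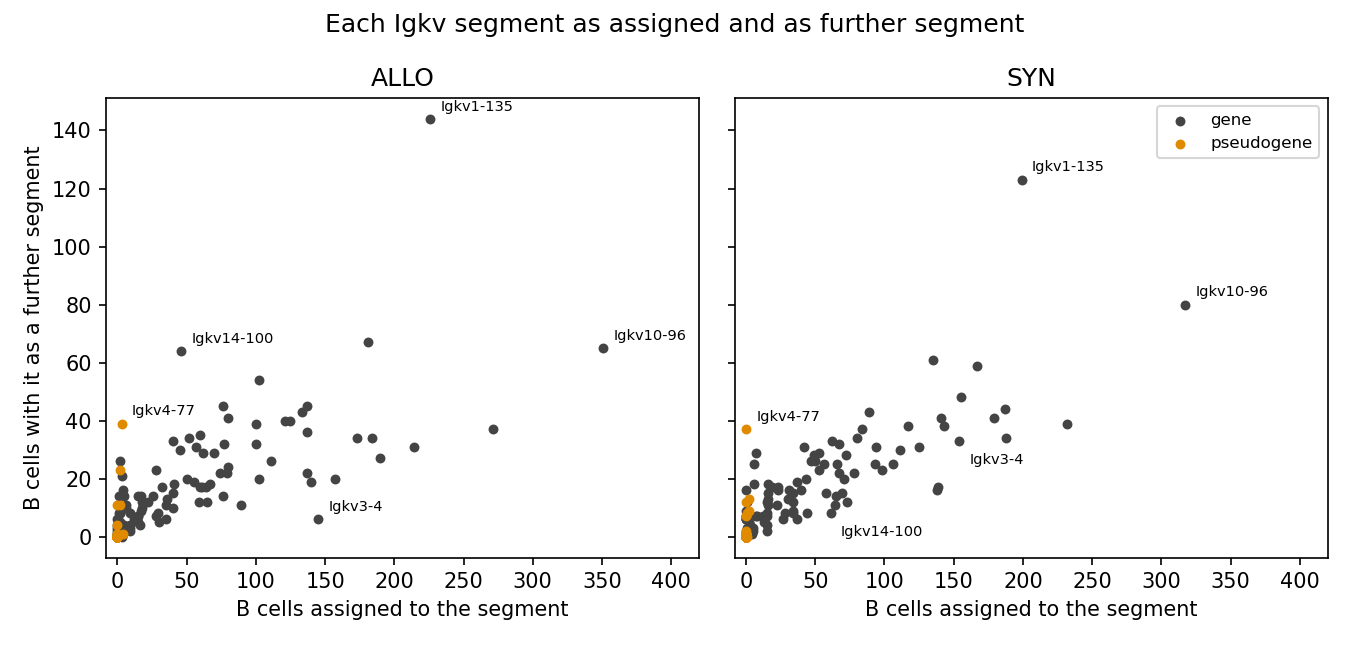
For each Igkv segment, the number of B cells with it as a further segment (at least 3 UMIs, not leading) against the number of B cells assigned to it, in ALLO on the left and SYN on the right, with pseudogenes in orange. Igkv1-135 stands highest (144 and 123 cells), the pseudogene Igkv4-77 lies on the left edge (39 and 37), and Igkv14-100 is high in ALLO alone (64 against 8).

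Some segments were also seen outside the cells assigned to them, and these differed between libraries. Igkv14-100 had at least 1 UMI in 142 of 1546 ALLO T cells (9.19%, 7.79 to 10.7%) and in 4 of 2103 SYN T cells (0.190%, 0.0518 to 0.486%). In B cells assigned to another segment it was found in 9.27% of ALLO (8.53 to 10.1%) and 0.296% of SYN cells (0.169 to 0.480%). In the ALLO library the share in T cells, which do not express the gene, was thus alike to that in B cells of other segments. The source of these UMIs was not tested. In 13 ALLO T cells the segment reached 3 UMIs. It was further in 64 ALLO and 8 SYN cells, while fewer ALLO cells than SYN cells were assigned to it (46 and 61).

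The SYN library had 2 such segments. Igkv19-93 was found in 3.28% of SYN T cells (2.56 to 4.13%) against 0.388% of ALLO T cells, and in 5.53% against 1.59% of B cells assigned to another segment. Igkv15-103 was found in 1.71% (1.20 to 2.36%) against 0.259% of T cells and in 1.95% against 0.299% of such B cells. A single barcode held up to 910 UMIs of Igkv19-93 and 1913 of Igkv15-103 in SYN, against 83 and 54 in ALLO. For Igkv14-100 the highest barcode was in SYN, at 369 UMIs, against 93 in ALLO, where the T cell share was high.

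Igkv1-135, the most common further segment, and Igkv4-77, the most common among pseudogenes, had no such excess in T cells. Igkv1-135 was found in 0.647% of ALLO and 0.856% of SYN T cells, near Igkv10-96 at 0.647% and 0.523%, and Igkv4-77 in 1 T cell of each library (0.0647% and 0.0476%). Over all segments, 1.10% of ALLO T cells (0.642 to 1.75%) and 0.903% of SYN T cells (0.545 to 1.41%) could be assigned to one.

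**Figure D5:**
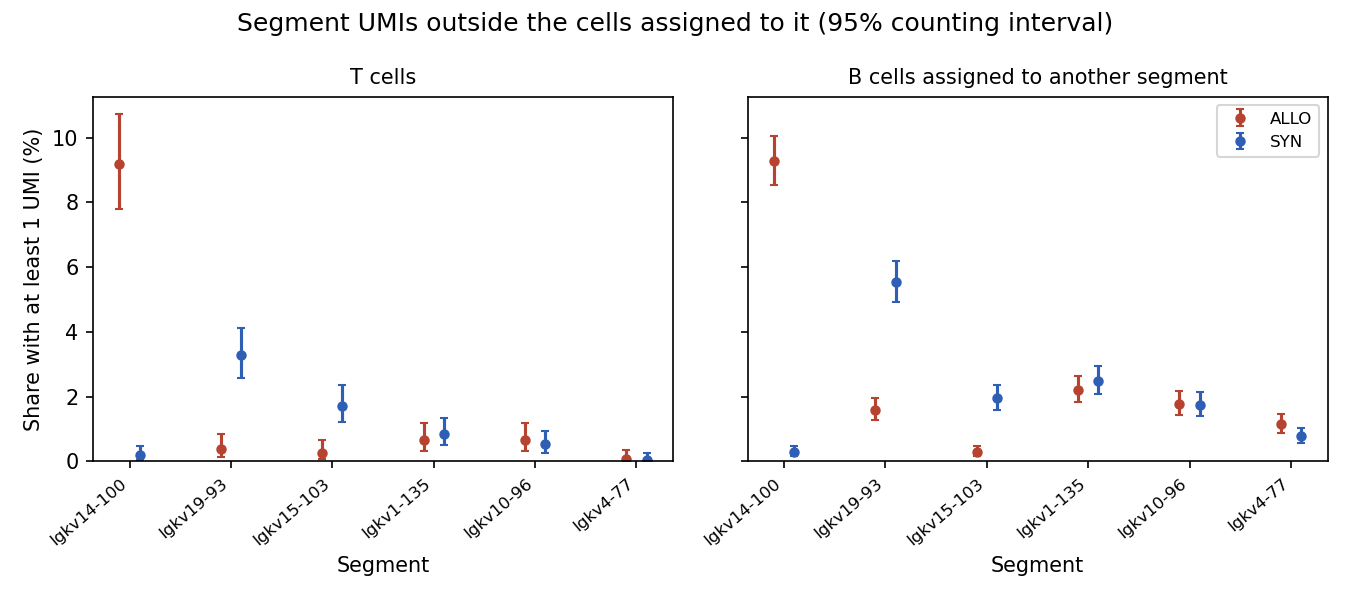
Share of cells (%) with at least 1 UMI of a segment among T cells (left) and B cells assigned to another segment (right), ALLO in red and SYN in blue, with 95% counting intervals. Igkv14-100 is high in ALLO in both panels (9.19% and 9.27%), Igkv19-93 is higher in SYN (3.28% and 5.53%), and Igkv4-77 is near 0 in T cells.

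No segment reached 3 UMIs in 489 ALLO B cells (7.04%) and 555 SYN B cells (8.18%). These cells were shallower, with medians of 2364 and 1451 UMIs. Lambda variable genes were frequent in them: Iglv1, Iglv2 and Iglv3 together reached 3 UMIs in 50.3% of the ALLO cells (45.8 to 54.8%) and 37.3% of the SYN cells (33.3 to 41.5%). In cells with 1 Igkv segment it was 6.64% and 5.73%, and in cells with at least 2 it was 6.83% and 6.41%. After thinning to 1000 UMIs the shares were 46.4% and 35.0% with no kappa segment, 4.71% and 4.35% with 1, and 4.09% and 3.43% with at least 2. Lambda transcripts thus went with the lack of a kappa segment in both libraries, also where lambda UMIs were counted at equal depth. The kappa classes were those of full depth, so the lack of a kappa segment was not assessed at equal depth.

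A heavy chain segment could be assigned as well, by the same limits, in 4510 ALLO and 4430 SYN cells, with 2251 and 2250 kinds of heavy and light pairs, of which 1272 were found in both libraries. The commonest was Ighv1-26 with Igkv10-96, in 19 ALLO and 23 SYN cells. Most common pairs were made of common segments. Ighv1-82 with Igkv10-96 (15 and 10 cells) and Ighv1-26 with Igkv1-117 (13 and 11) were of that kind, while Ighv1-26 with Igkv6-17 was found in 3 ALLO and 17 SYN cells.

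A pair known from B-1 cells, Ighv11-2 with Igkv14-126, was found in 6 of 9 ALLO and 9 of 12 SYN cells that used Ighv11-2, while Igkv14-126 was the light segment of 0.687% and 0.745% of all cells with both chains. None of the 15 cells had an Fcer2a UMI, at medians of 6178.5 and 5288 UMIs, where 72.9% of ALLO and 71.6% of SYN cells with both chains had one, as did 2.65% and 1.85% of T cells, which do not express it. The B-1 cell genes Bhlhe41, Zbtb32, Cd5 and Spn summed to 256 CPM in the 6 ALLO cells and 275 CPM in the 9 SYN cells, against 22.8 and 22.6 CPM over all cells with both chains. These sums rest on few UMIs, in that gene order 4, 0, 5 and 1 in ALLO and 7, 4, 1 and 0 in SYN. The other known pair, Ighv12-3 with Igkv4-91, was found in 2 ALLO cells and no SYN cell.

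Ighv5-9 with Igkv3-4, singled out after its counts were seen, was the second most common pair and came mostly from 1 library, with 5 ALLO and 23 SYN cells. In SYN these were 23 of 39 cells with Ighv5-9 (59.0%) and 20.7% of cells with Igkv3-4. They differed from other SYN B cells in depth and markers. Their median was 1859 UMIs, and 4 of 23 (17.4%, 4.95 to 38.8%) had an Fcer2a UMI, or 13.0% (2.78 to 33.6%) after thinning to 1000 UMIs against 40.2% (38.8 to 41.7%) of all SYN cells with both chains. SYN cells with Igkv3-4 and another heavy segment were at 42.0% (31.6 to 53.0%) after thinning. The 16 SYN cells with Ighv5-9 and another Igkv segment were at 31.25% (11.0 to 58.7%), an interval that overlaps that of the pair. The 4 B-1 genes summed to 400 CPM in the 23 cells, with Zbtb32 in 9 cells, Bhlhe41 in 5, Cd5 in 1 and Spn in 0. Plac8 stood at 2283 CPM against 447 CPM over all. In ALLO, at a median of 3435 UMIs, 4 of the 5 cells had an Fcer2a UMI and none had a UMI of the 4 genes. After thinning, 1 of the 5 ALLO cells had an Fcer2a UMI (20%, 0.505 to 71.6%), an interval that includes the SYN share. How many mice gave these cells cannot be told, so a share of 1 mouse and a share of the group cannot be told apart.

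Barcodes with at least 3 Jchain UMIs, the joining chain gene of antibody-secreting cells, were kept out of the B cells. Of 40 in ALLO and 45 in SYN, 36 and 41 could be assigned. Igkv12-44 led in ALLO with 9 cells and Igkv10-96 in SYN with 15 cells (36.6%), and the next segments had 2 and 3 cells.

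Other genes of the kappa pathway differed little between libraries in B cells. Igkc was at 1284 CPM in ALLO and 1322 CPM in SYN (ratio 0.971, 0.956 to 0.987), and Igkj1 to Igkj5 had no UMI in either. The lambda genes Iglv1 (1.04) and Iglv3 (1.09) were close and Iglv2 was higher in ALLO (163 against 123 CPM, 1.32, 1.26 to 1.39). The lambda constant genes were lower in ALLO, Iglc1 at 0.886 (0.855 to 0.919), Iglc2 at 0.913 (0.900 to 0.926) and Iglc3 at 0.912 (0.897 to 0.926). The recombinase genes Rag1 and Rag2 had 2 and 0 UMIs in ALLO and none in SYN, and Dntt, which adds bases at joins, had 0 and 1. The repair genes Lig4, Xrcc4, Xrcc5, Xrcc6, Dclre1c and Prkdc had ratios of 0.870 to 1.02, and Nhej1, with 18 and 13 UMIs, was at 1.24 (0.576 to 2.76). Of the factors that act on V promoters and the kappa enhancers, Irf4 was the one farthest from 1 (131 against 91.3 CPM, 1.43, 1.35 to 1.51), while Pou2af1, the partner of the octamer factors, was at 0.868 (0.832 to 0.905). No gene of these lists with at least 20 UMIs was 1.5-fold apart.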

How the data were processed

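The deposited values are raw UMI counts of each gene in each barcode. The authors used a 10x 5′ kit, per the labels' protocols, and Cell Ranger 6.0.2, per the submitters' processing notes. These notes also name FastQC and mm10. How reads that match several segments were handled, and with which annotation, is not given in the sources used here, so values of near-identical segments and of pseudogenes are uncertain. The barcode filter of 1000 UMIs left 9926 ALLO and 11267 SYN barcodes. Doublets were kept, and Scrublet (scanpy 1.11.5) marked 193 ALLO and 409 SYN barcodes, 21 and 50 of them B cells, which were left out as an alternative. Shares have exact Clopper-Pearson intervals, and ratios have exact conditional ones (scipy 1.17.1, numpy 2.4.6), all at 95%. A floor of 3 counts was used for counts of 0. No test was made. The assignment and the intervals were tested on simulated data. Segments were named by rank: the 12 most used, the 5 highest and 5 lowest of ALLO against SYN and of Myof or S1pr3 against Fcer2a cells, and the 3 and 3 of Cd93 cells, ranked by the bound nearest to 1 among segments with at least 40 cells, with the 6 commonest pairs. The members, lists and alternatives were chosen with earlier results of these data known. Identity came from pairwise alignment of GENCODE M21 transcripts. A marker gene of the fixed lists is not reported here.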

Additional observations from a re-analysis of the deposited data

Results flagged for a closer look

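The distal region of the locus was used more in Cd93 cells than in Fcer2a cells of ALLO (ratio 1.07) and less in SYN (ratio 0.889). Without the 4 segments that had at least 50 UMIs in T cells, an alternative chosen after seeing the data, the ALLO ratio was 0.973 and the SYN ratio 0.898, on the same side of 1. All 4 segments are distal, so that alternative takes segments out of the distal share only. The difference between them was not tested, and the intervals (0.783 to 1.43 and 0.630 to 1.22) overlap over most of their length.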

How the results depend on the processing

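No paired analysis was possible because each group has 1 library. Of 116 repeats of the main results, 113 stayed within the main interval, or within 1.5 times the main count. With a minimum of 5 UMIs per segment, the ALLO to SYN ratio of the share with 2 segments was 1.076, and 2 segments were at least 1.5-fold apart, against 4. With cells thinned to 1000 UMIs that share's ratio was 0.9251, and the cause was not tested. Family 4 ranged from 1.08 to 1.16 and the distal region from 0.989 to 1.03. In ALLO Cd93 cells the distal ratio was 0.973 without the 4 segments, all distal, with at least 50 UMIs in T cells. That alternative was chosen after seeing the data. So were those without Igkv14-100, shared barcodes, myeloid transcripts or near-identical segments. For single segments 350 of 352 repeats stayed within the interval, and Igkv8-21 fell to 0 in Myof or S1pr3 cells in the other 2. The number of cells limits the Cd93 comparison, with 106 assigned cells per library.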
